A study of Homo sapiens with 9 samples.

Results

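The tumour suppressor p53 is a transcription factor that is stabilised when DNA is broken, and it then switches on genes that stop the cell cycle, start apoptosis, repair DNA or feed back on p53 itself. A double-strand break made by Cas9, the nuclease of the CRISPR gene-editing system, is one signal that can do this in cells with working p53, so p53 target genes are of interest in any cell line edited in this way. The cells studied here, HepG2, are an established line from a human liver tumour that keeps many features of hepatocytes.

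The 10 p53 target genes described here are CDKN1A, MDM2, GDF15, BBC3, BAX, FAS, TP53INP1, SESN1, RRM2B and ZMAT3. They were picked as well-known p53 targets and matched by Entrez gene number to the rows of the count table. All 10 were found among 11746 numbered features, and all 10 passed the filter on low counts that left 11064 features for testing. RNA was sequenced from 3 groups of HepG2 cells with 3 libraries each. The cells had been transduced with lentiCRISPRv2, a lentiviral vector that carries Cas9 together with 1 guide RNA, and selected with puromycin. In sgCtrl the guide targets the AAVS1 safe-harbour site in PPP1R12C, and in sgKeap1-1 and sgKeap1-2 it targets KEAP1, the adaptor that hands the transcription factor NRF2 over for degradation. RNA was collected 48 h after seeding in every group. The methods name no clone, and nothing says that the 3 libraries of a group came from separate cultures, so p-values measure only the spread between these libraries, which may be technical. Every group, sgCtrl included, carries Cas9 and a guide that cuts the genome. No uncut cells were analysed here, so the libraries compare a cut in KEAP1 with a cut in AAVS1, and a response to cutting shared by all 3 groups cannot be seen.

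The guide target sites are shown because the groups differ in nothing else that the labels give. Each is written 5′ to 3′ with the adjoining NGG motif that Cas9 needs (the PAM) in capitals, and each matched the GRCh37 reference exactly once.

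sgKeap1-1: acaaccccatgaccaatcagTGG

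sgKeap1-2: ttggcatcatgaacgagctgCGG

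sgCtrl: ccagccgtagaggtgacccAGG

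The sgKeap1-1 site lies at chr19:10602372-10602391 on the minus strand, in coding sequence of KEAP1 exon 3. The sgKeap1-2 site lies at chr19:10610500-10610519 on the minus strand, in coding sequence of KEAP1 exon 2. The sgCtrl site lies at chr19:55627855-55627873 on the plus strand, in an intron of PPP1R12C, where the annotation also places exon 1 of a long noncoding RNA on the other strand. Of the 10 genes, 3 share chromosome 19 with the cuts in the reference: GDF15 starts or ends 7.88 Mb from the nearer KEAP1 site, BBC3 7.89 Mb from the AAVS1 site and BAX 6.16 Mb from the AAVS1 site.

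The libraries held 3011644 to 4725840 counted reads on numbered features (median 3758185). The first principal component (43.3% of the variance) separated sgCtrl from both KEAP1 guides, and the second (21.1%) placed replicate 2 of every group to one side of its replicates 1 and 3, with sgKeap1-2 replicate 3 far out on the other side. The edited gene did not lose its RNA clearly: KEAP1 gave a log2 fold change of -0.40 (adjusted p = 0.21, edgeR's quasi-likelihood test) with sgKeap1-1 and 0.02 (adjusted p = 0.95) with sgKeap1-2, and PPP1R12C gave 0.06 and 0.15. Counts of a gene's 3′ end do not read out small coding indels. NRF2 targets, the known readout of KEAP1 loss, did move: 6 of 7 tested rose with each guide, among them NQO1 by 1.38 and 1.74 on the log2 scale (adjusted p = 8.2e-06 and 8.5e-07), where 2.8% and 5.96% of all features were called higher. Without the libraries numbered 1, the sgKeap1-1 calls of GCLC (adjusted p = 0.16), TXNRD1 (0.0724) and SLC7A11 (0.182) were lost, as were the sgKeap1-2 calls of GCLC (0.0567) and SLC7A11 (0.0688). Of 8 hepatocyte-lineage markers, 5 fell and 1 (TTR) rose with each guide, where 1.4% and 4.85% of all features were called lower with sgKeap1-1 and sgKeap1-2. ALB, one of the 5, lay at 11034 to 16328 CPM (counts-per-million values, with the scaling given for CDKN1A) in sgCtrl, 5373 to 7761 in sgKeap1-1 and 3493 to 5186 in sgKeap1-2. Of 7 markers of other cell types, 3 passed the filter, and of these CD68 and ACTA2 did not pass the test. LYVE1 rose with each guide from 0 to 0.681 CPM in sgCtrl to 4.73 to 12.6. With 0, 2 and 1 reads in sgCtrl, LYVE1 passed the filter only through KEAP1-guide libraries.

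CDKN1A rose with both KEAP1 guides and BBC3 with sgKeap1-2, and no other of the 10 genes passed the test in the fit on groups alone. With sgKeap1-1, 1 of 10 was called higher and 0 lower, where 2.8% of all features tested were called higher. With sgKeap1-2, 2 of 10 were called higher and 0 lower, where 5.96% of all features were called higher. The log2 fold change was positive in 8 of the 10 genes with sgKeap1-1 and in 9 with sgKeap1-2, with medians of 0.25 and 0.43, against medians of -0.00 and -0.01 over all features. Between the 2 KEAP1 guides, 0 of 10 were called by edgeR's quasi-likelihood test, by limma-voom or by DESeq2, and 1 (SESN1) had an unadjusted p under 0.05, where 0.0181% of all features were called and 5.08% had such a p. The contrasts of both guides use the same 3 sgCtrl libraries, so they are not independent of each other.

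**Figure D1:**
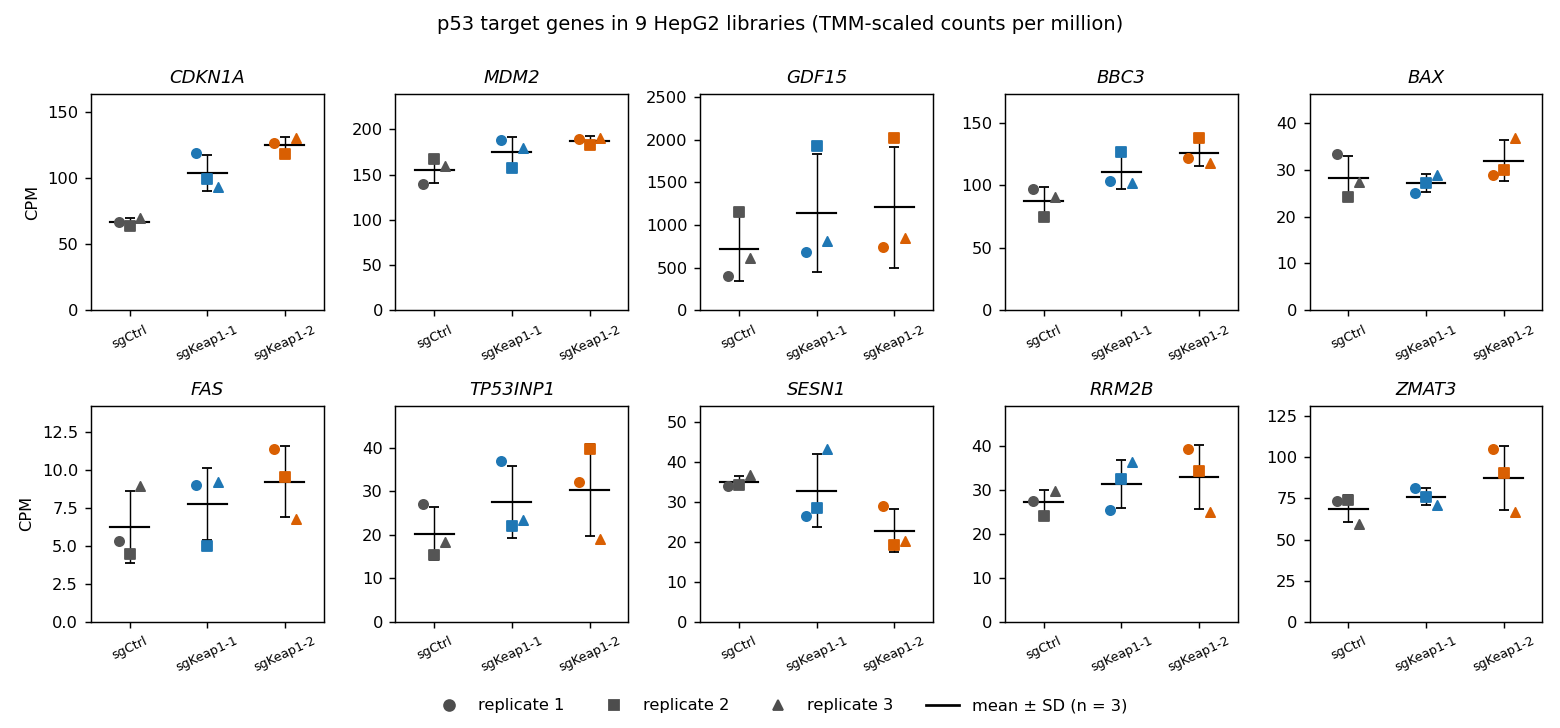
TMM-scaled counts-per-million values (CPM; vertical axes, from 0) of the 10 p53 target genes in the 9 libraries, by group; symbols mark the replicate number, and the horizontal line and bar are the mean ± SD of 3 libraries. CDKN1A lies at 64.0 to 69.7 in sgCtrl and at 93.1 or more in every KEAP1-guide library, and GDF15 is highest in replicate 2 of every group.

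CDKN1A encodes p21, the inhibitor of cyclin-dependent kinases that carries out the arrest of the cell cycle ordered by p53. Its level, as a counts-per-million value (CPM) scaled by the trimmed mean of M-values (TMM), was 66.5, 64.0 and 69.7 in sgCtrl libraries 1 to 3. With sgKeap1-1 it was 119, 98.9 and 93.1, and with sgKeap1-2 it was 126, 118 and 131. Every KEAP1-guide library was above every sgCtrl library, and the highest sgKeap1-1 library lay just above the lowest sgKeap1-2 library. In bulk RNA, a higher level in each cell and a larger share of cells with a high level cannot be told apart. The log2 fold change was 0.64 ± 0.13 (SE, n = 3 against 3), or 1.55-fold, with sgKeap1-1 (adjusted p = 0.0111, edgeR's quasi-likelihood test, adjusted over all features by Benjamini-Hochberg). It was 0.90 ± 0.13, or 1.87-fold, with sgKeap1-2 (adjusted p = 4.1e-04). Between the guides the level differed by 0.27 in log2 with a 95% interval of -0.01 to 0.54 (adjusted p = 0.968, edgeR), so neither equality nor a difference of up to that size was shown.

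For sgKeap1-2, the CDKN1A call stood when any 1 library or any replicate number was left out. For sgKeap1-1 it was lost without replicate 1 of sgCtrl (adjusted p = 0.0588, edgeR), without replicate 1 of sgKeap1-1 (0.0766), and when all libraries numbered 1 (0.42) or 2 (0.0515) were left out. The log2 fold change stayed between 0.52 and 0.74 in these refits. Gene models on the opposite strand that overlap CDKN1A do not reach into its last 1000 bases, where QuantSeq reads fall.

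MDM2 encodes the ubiquitin ligase that marks p53 for degradation and is itself switched on by p53, which closes a feedback loop. Its CPM was 139, 167 and 160 in sgCtrl, 188, 158 and 180 in sgKeap1-1, and 190, 182 and 191 in sgKeap1-2. The sgKeap1-2 libraries all lay above the sgCtrl libraries, and the sgKeap1-1 libraries overlapped with them. The log2 fold changes were 0.17 ± 0.12 (adjusted p = 0.59, edgeR) with sgKeap1-1 and 0.27 ± 0.12 (adjusted p = 0.198) with sgKeap1-2. The 95% interval for sgKeap1-2 ran from 0.01 to 0.53, where that of CDKN1A ran from 0.62 to 1.19; the difference between these genes was not tested.

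BBC3 encodes PUMA, a BH3-only protein that binds the anti-apoptotic members of the BCL2 family. Its CPM was 96.7, 74.5 and 90.9 in sgCtrl, 104, 126 and 102 in sgKeap1-1, and 122, 138 and 118 in sgKeap1-2. All KEAP1-guide libraries were above all sgCtrl libraries. The log2 fold change was 0.34 ± 0.14 (adjusted p = 0.28, edgeR) with sgKeap1-1 and 0.53 ± 0.14, or 1.44-fold, with sgKeap1-2 (adjusted p = 0.029). With both guides combined, 2 of 10 genes were called higher, CDKN1A at 0.77 (adjusted p = 5.64e-04) and BBC3 at 0.43 (adjusted p = 0.0438), where 5.57% of all features were called higher. The BBC3 call with sgKeap1-2 was lost when sgCtrl replicate 2 (adjusted p = 0.122) or 3 (0.0779), or sgKeap1-2 replicate 1 (0.064) or 2 (0.0982), was left out, and without any one replicate number (0.0679 to 0.193). With both guides combined it was lost without any sgCtrl library, without replicate 1 or 2 of either KEAP1 guide and without any one replicate number (0.0644 to 0.366). The CDKN1A call with both guides combined was lost without the libraries numbered 1 (0.71, adjusted p = 0.0558, edgeR), where 0 of the 10 were called.

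Groups that did not overlap, as for these genes, were not rare. With sgKeap1-1, 2 of the 10 genes (CDKN1A and BBC3) had every library above sgCtrl, where 11.5% of all features did. With sgKeap1-2 it was 3 of 10 (CDKN1A, BBC3 and MDM2) where 14.3% of all features did, and SESN1 had every library below, where 13.7% did.

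**Figure D2:**
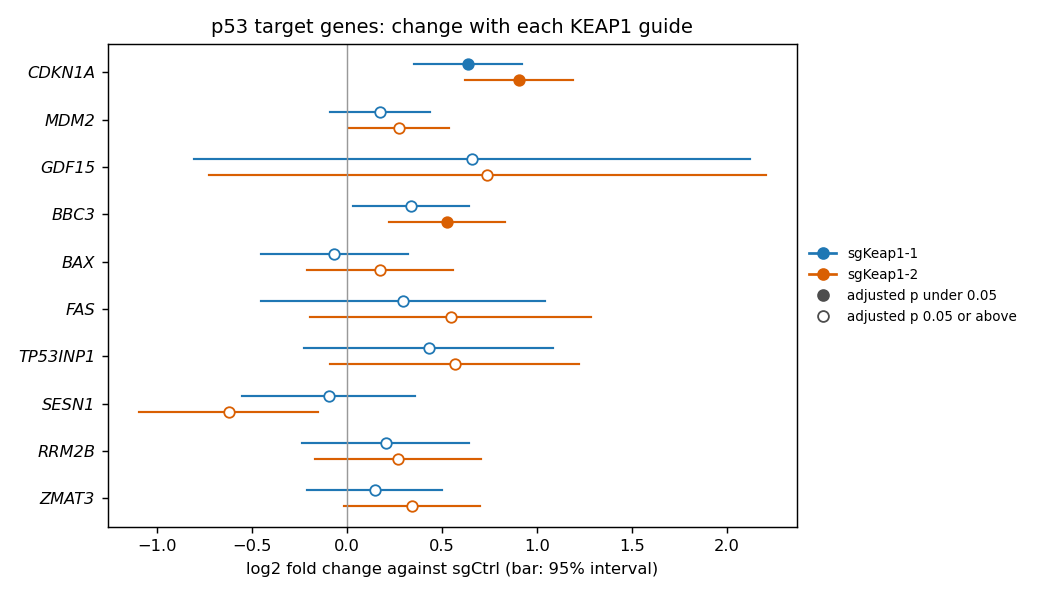
Log2 fold change of each p53 target gene against sgCtrl (horizontal axis) with sgKeap1-1 (blue) and sgKeap1-2 (orange), from edgeR's quasi-likelihood fit of 9 libraries; bars are 95% intervals and filled points have an adjusted p under 0.05. CDKN1A is filled with both guides and BBC3 with sgKeap1-2, and the GDF15 intervals are the widest, from -0.80 to 2.12 with sgKeap1-1 and from -0.73 to 2.20 with sgKeap1-2.

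GDF15, a secreted cytokine of the TGF-beta superfamily that responds to p53 and also to metabolic and integrated stress signalling, varied more by replicate number than by guide. Its CPM was 404, 1149 and 619 in sgCtrl, 682, 1931 and 811 in sgKeap1-1, and 743, 2026 and 849 in sgKeap1-2. Replicate 2 was the highest library of each group, at 2.25, 2.59 and 2.54 times the mean of replicates 1 and 3 in sgCtrl, sgKeap1-1 and sgKeap1-2. The groups overlapped, and the log2 fold changes were 0.66 ± 0.62 (adjusted p = 0.74, edgeR) and 0.74 ± 0.62 (adjusted p = 0.554). Without replicate 2 of the KEAP1 guide's own group these were 0.04 and 0.15, and without sgCtrl replicate 2 they were 1.16 and 1.24. Between libraries of the same number, GDF15 was higher in each of 3 with sgKeap1-1 (log2 differences of 0.76, 0.75 and 0.39) and in each of 3 with sgKeap1-2 (0.88, 0.82 and 0.46).

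For sgCtrl and sgKeap1-1 the replicate numbers were taken as pairing the libraries, since deviations from the group means correlated within every number (0.163 to 0.378). The margin was narrow, as libraries of these groups with different numbers gave -0.319 to 0.157. With the number as a block, GDF15 passed the test with sgKeap1-1, at 0.63 ± 0.11 (adjusted p = 4.6e-04, edgeR), and the count of called genes among the 10 went from 1 to 2, where 5.11% of all features were then called higher. CDKN1A kept its call under the block (0.63 ± 0.12, adjusted p = 0.002). With sgKeap1-2, GDF15 also passed under the block (0.72, adjusted p = 6.5e-05, edgeR). The numbers were not taken as pairing sgKeap1-2 with sgCtrl, since the lowest same-numbered correlation, -0.0129, fell under the 0.1 asked for. Same-numbered libraries of all 3 groups share a label prefix of unstated meaning, so which block results are read depends on this choice.

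In libraries numbered 2, cell cycle genes also stood apart with both KEAP1 guides, and stress genes in sgCtrl and sgKeap1-1. Of 18 cell cycle genes that the p53-p21-DREAM axis is known to repress, replicate 2 was the lowest library for 18 in sgKeap1-1 and for 17 in sgKeap1-2, where 37.9% and 33.5% of all features were lowest there. In sgCtrl it was the lowest for 7 of the 18, where 37% of all features were. Of 9 integrated stress response genes, replicate 2 was the highest library for 7 in sgCtrl, 9 in sgKeap1-1 and 3 in sgKeap1-2, where 35.8%, 37.3% and 34.1% of all features were highest there. The part of these shifts in the GDF15 values was not tested.

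**Figure D3:**
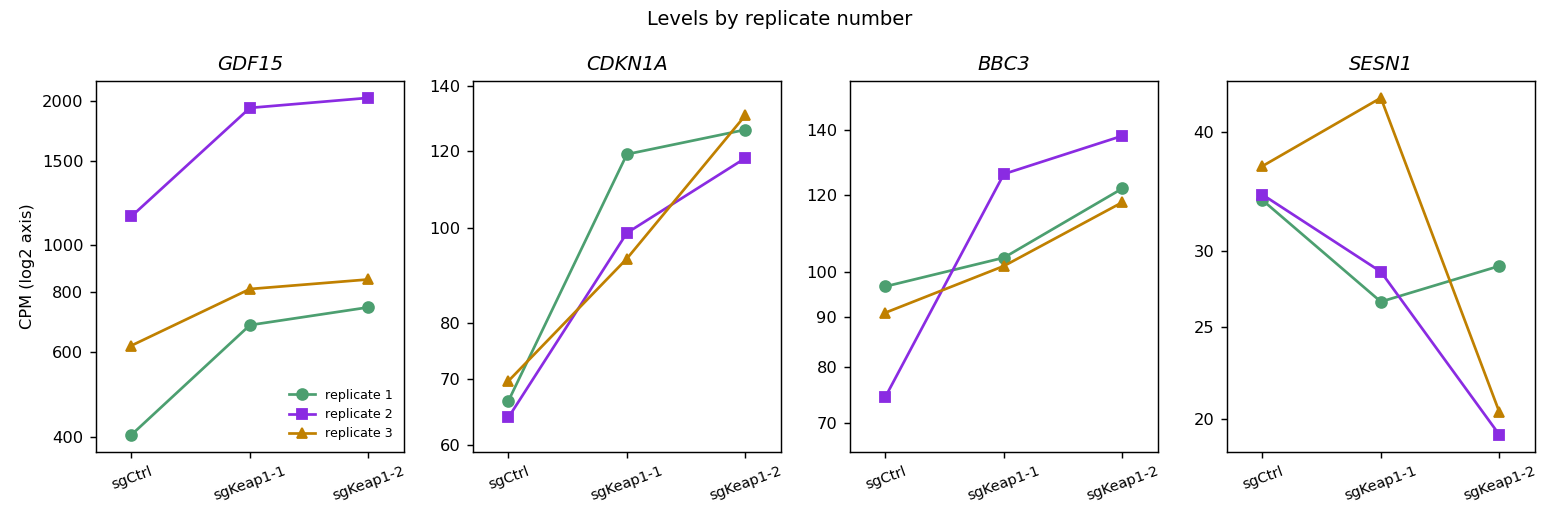
CPM on a log2 axis of GDF15, CDKN1A, BBC3 and SESN1 in the 3 groups, with a line joining libraries that share a replicate number. The 3 GDF15 lines climb from sgCtrl to both KEAP1 guides with replicate 2 far above, while SESN1 in sgKeap1-2 lies at 19.3 to 28.9 against 33.9 to 36.8 in sgCtrl.

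The other apoptosis genes did not pass the test. BAX, the pore-forming protein of the outer mitochondrial membrane, lay between 24.2 and 36.8 CPM in all 9 libraries, with log2 fold changes of -0.07 ± 0.18 (adjusted p = 0.929, edgeR) with sgKeap1-1 and 0.17 ± 0.18 (adjusted p = 0.635) with sgKeap1-2. FAS, a death receptor of the cell surface, had few reads, 13 to 39 per library. Its CPM was 5.30, 4.42 and 8.92 in sgCtrl, 9.01, 5.01 and 9.20 in sgKeap1-1, and 11.4, 9.51 and 6.78 in sgKeap1-2. The groups overlapped, and the 95% intervals of its log2 fold changes ran from -0.45 to 1.04 and from -0.19 to 1.29, which include both no change and a change of the size seen for CDKN1A. TP53INP1, a nuclear protein that promotes p53-dependent apoptosis, lay at 15.3 to 27.0 CPM in sgCtrl, 22.0 to 37 in sgKeap1-1 and 18.9 to 39.8 in sgKeap1-2. Its log2 fold changes were 0.43 ± 0.30 (adjusted p = 0.587, edgeR) and 0.57 ± 0.30 (adjusted p = 0.292). Each same-numbered difference with either guide was positive, but the libraries numbered 3 were nearly level in sgCtrl (18.4 CPM) and sgKeap1-2 (18.9). The numbers were not taken as pairing those 2 groups.

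SESN1, which encodes sestrin 1, a stress-induced inhibitor of mTORC1 signalling, was the one gene of the 10 with lower values in each sgKeap1-2 library. Its CPM was 33.9, 34.4 and 36.8 in sgCtrl, 26.5, 28.5 and 43.4 in sgKeap1-1, and 28.9, 19.3 and 20.4 in sgKeap1-2. The sgKeap1-1 libraries lay on both sides of sgCtrl, and the sgKeap1-2 libraries all lay below it. The log2 fold change was -0.10 ± 0.21 (adjusted p = 0.914, edgeR) with sgKeap1-1 and -0.62 ± 0.22 (adjusted p = 0.0909) with sgKeap1-2, which did not pass the threshold. With the replicate number as a block, SESN1 passed with sgKeap1-2 (-0.62, adjusted p = 0.0365, edgeR), though the numbers were not taken as pairing those groups. The difference between the guides was -0.53 in log2 with a 95% interval of -0.99 to -0.06 (adjusted p = 0.934).

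RRM2B, the ribonucleotide reductase subunit that supplies nucleotides for DNA repair outside S phase, and ZMAT3, a zinc-finger protein that binds RNA and regulates splicing, did not pass the test. RRM2B lay at 24.2 to 29.8 CPM in sgCtrl, 25.3 to 36.3 in sgKeap1-1 and 25 to 39.4 in sgKeap1-2, with log2 fold changes of 0.20 and 0.27. ZMAT3 lay at 59.4 to 73.8 CPM in sgCtrl, 71.0 to 81.4 in sgKeap1-1 and 66.6 to 105 in sgKeap1-2, with log2 fold changes of 0.14 ± 0.17 (adjusted p = 0.787, edgeR) and 0.34 ± 0.17 (adjusted p = 0.234). ZMAT3 passed with sgKeap1-2 only when replicate 3 of that group was left out (0.51, adjusted p = 0.0324).

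Sequence around the annotated starts of the genes was searched for matches to the consensus of a p53 half-site, 1 of the paired decamers that p53 binds. Both strands of the RefSeq promoters were read (250 bases before to 50 after each start, GRCh38.p14). The table held promoters of 8 of the 10 genes, 16 in all, not those of TP53INP1 and RRM2B. A match was found in 2 of the 16, 1 each at FAS and SESN1, where 6.63% of 35116 promoters held one. They are shown with the matched letters in capitals, because in each the match is followed by a further stretch of similar letters.

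FAS: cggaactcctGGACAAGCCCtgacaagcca

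SESN1: attgtcgtctGGACAAGTCTccacaagtca

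The FAS stretch lies at chr10:88991299-88991328 on the plus strand, and its match begins 122 bases before an alternative start. The SESN1 stretch lies at chr6:109009018-109009047 on the minus strand, 49 bases before an alternative start. Each of these starts lies downstream of the other annotated starts of its gene, so both matches are inside the genes as read from their first starts. FAS and SESN1 are the gene with the fewest reads and the gene with lower values, and the promoters of CDKN1A, BBC3 and GDF15 held no match in this window, which says nothing of sites farther away. The core letters of the antioxidant response element bound by NRF2, TGACNNNGC, were found on either strand at 4 places, 1 each at MDM2, BAX, FAS and SESN1. Overlapping MDM2 and FAS windows hold the same match, so 6 of the 16 windows held one, and their share cannot be set against the 13.3% of all promoters with a match.

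A wider list of 25 further p53 targets was read in the same fit. With sgKeap1-1, 0 of 25 were called by edgeR, limma-voom or DESeq2, and 6 had an unadjusted p under 0.05 in edgeR, where 15% of all features did. With sgKeap1-2, PLK3 was called higher and PPM1D lower, 2 of 25 where 10.8% of all features were called in either direction. Over the 25 genes the log2 fold changes had medians of 0.07 and 0.05 and were positive in 15 with each guide, against medians of -0.00 and -0.01 over all features. PPM1D encodes WIP1, a phosphatase that dampens p53 signalling after damage. Its CPM was 36.0, 39.1 and 42.9 in sgCtrl, 28.3, 27.7 and 32.3 in sgKeap1-1, and 28.9, 22.4 and 24.2 in sgKeap1-2. All libraries of both KEAP1 guides lay below sgCtrl, and the guides' ranges overlapped. It fell by 0.65 on the log2 scale with sgKeap1-2 (adjusted p = 0.0233, edgeR) and gave -0.42 with sgKeap1-1 (adjusted p = 0.227). PLK3, a polo-like kinase of the stress response, rose by 1.07 with sgKeap1-2 (adjusted p = 0.0265), from 6.14 to 7.49 CPM in sgCtrl to 8.62 to 17.3, and did not pass with limma-voom (adjusted p = 0.0555). Its last 1000 bases overlap the opposite-strand gene DYNLT4. The PPM1D call was lost without sgCtrl replicate 2 (0.0569) or 3 (0.105) or sgKeap1-2 replicate 2 (0.0964), and the PLK3 call without any sgCtrl library or sgKeap1-2 replicate 2 or 3 (0.0514 to 0.104). Both calls were also lost without any one replicate number (0.066 to 0.206). PMAIP1, which encodes the BH3-only protein NOXA, lay at 0.558 to 3.06 CPM in sgCtrl, 3.94 to 6.54 in sgKeap1-1 and 3.15 to 5.85 in sgKeap1-2. Its sgCtrl libraries held 7, 9 and 2 reads, and its log2 fold changes of 1.61 and 1.31 did not pass (adjusted p = 0.0905 and 0.125, edgeR). SESN2, the sestrin that also belongs to the integrated stress response, gave 0.21 (adjusted p = 0.577) and 0.39 (adjusted p = 0.12). With the replicate block, 2 of the 25 were called with sgKeap1-1, GADD45A at 0.58 (adjusted p = 0.0061) and PMAIP1 at 1.62 (adjusted p = 0.0208), both higher, where 5.11% of all features were called higher and 8.83% in either direction.

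**Figure D4:**
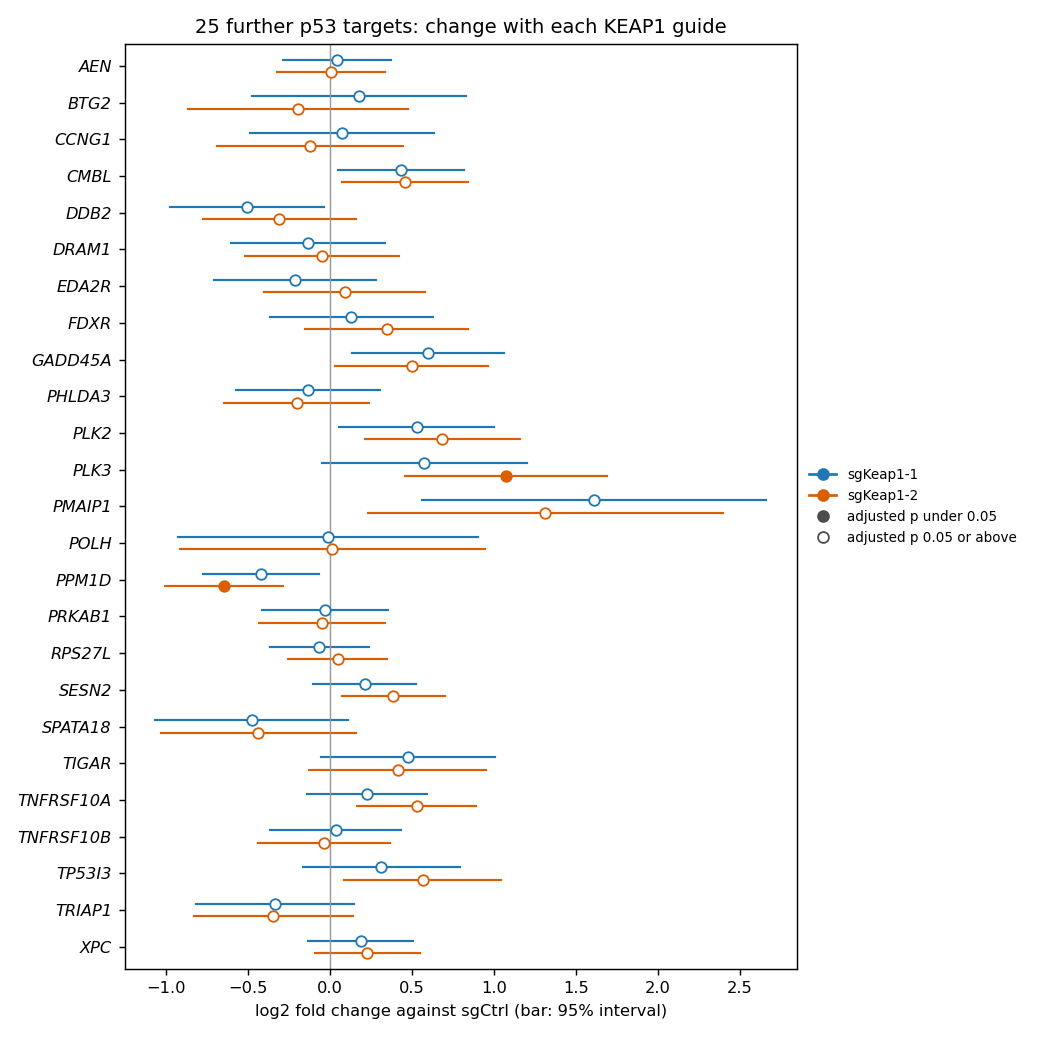
Log2 fold change against sgCtrl (horizontal axis) of 25 further p53 targets with sgKeap1-1 (blue) and sgKeap1-2 (orange); bars are 95% intervals and filled points have an adjusted p under 0.05 in edgeR's quasi-likelihood test. PLK3 (1.07) and PPM1D (-0.65), both with sgKeap1-2, are the 2 filled points.

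Of 13 tested relatives and regulators of p53, 0 passed with sgKeap1-1 by edgeR, limma-voom or DESeq2, and 4 (against the same 15% of all features) had an unadjusted p under 0.05 in edgeR. With sgKeap1-2, TP73 and HIPK2 fell and none of these 13 rose, 2 of 13 where 4.85% of all features were called lower. MDM4, which restrains p53, gave -0.01 and 0.35 (adjusted p = 0.994 and 0.257, edgeR).

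TP73, a p53 relative, had 33, 12 and 16 reads in the sgCtrl libraries, 12, 8 and 14 in sgKeap1-1 and 2, 1 and 4 in sgKeap1-2. Its log2 fold change was -1.08 (adjusted p = 0.27, edgeR) with sgKeap1-1 and -3.19 ± 0.58 (adjusted p = 0.0024) with sgKeap1-2, where a fold fitted on so few reads depends on the prior count. The call was lost when all libraries numbered 1 were left out (adjusted p = 0.111). The 3′ end of TP73 overlaps the antisense gene TP73-AS1, and the strand setting of the counting is not given in the sources used here, so reads of these genes cannot be told apart. HIPK2, a kinase that phosphorylates p53, fell by 0.44 with sgKeap1-2 (adjusted p = 0.0288, edgeR) and gave -0.29 with sgKeap1-1 (adjusted p = 0.247). Its call was lost without sgCtrl replicate 1 (0.138) or 3 (0.0967) or without any one sgKeap1-2 library (0.051 to 0.0792), and without number 1 (0.361) or 3 (0.154).

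CDKN1A was not the CDK inhibitor with the largest change. Of 6 other CDK inhibitor genes tested, CDKN2A and CDKN2B rose with both guides, by edgeR, limma-voom and DESeq2 alike, where 2.8% and 5.96% of all features were called higher by edgeR. CDKN2A encodes p16 and, in another reading frame, p14ARF, which holds MDM2 away from p53. Its CPM was 9.80, 13.3 and 11.2 in sgCtrl, 49.4, 46.4 and 48.1 in sgKeap1-1, and 63.4, 57.1 and 44.8 in sgKeap1-2. Both KEAP1-guide groups stood far above sgCtrl and overlapped with each other, with log2 fold changes of 2.08 ± 0.19 (adjusted p = 1.4e-05, edgeR) and 2.28 ± 0.19 (adjusted p = 2.8e-06). CDKN2B, which encodes p15, went from 0.795 to 1.70 CPM in sgCtrl to 6.84 to 7.41 in sgKeap1-1 and 7.80 to 10.4 in sgKeap1-2, with log2 fold changes of 2.47 (adjusted p = 9.6e-04, edgeR) and 2.77 (adjusted p = 1.6e-04). CDKN2B had 3, 5 and 5 reads in the sgCtrl libraries, so it passed the filter on low counts only through KEAP1-guide libraries. The sgKeap1-1 call of CDKN2B was lost without the libraries numbered 1 (adjusted p = 0.0832, edgeR). The counts do not separate the p16 and p14ARF transcripts of CDKN2A.

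Of the 18 tested cell cycle genes that p21 and the DREAM complex are known to hold down, edgeR called 0 with sgKeap1-1 and 2 with sgKeap1-2. For sgKeap1-2, limma-voom called 1 and DESeq2 4, all lower. Alternative fits with sgKeap1-2, limma-voom and DESeq2 among them, called 922 to 1956 features in either direction, where edgeR called 1196. The share of each tool is not given here, so its count cannot be set against all features. The log2 fold change was positive in 0 of 18 with either guide, with medians of -0.34 and -0.49 against -0.00 and -0.01 over all features. Replicate 2 was the lowest library for 18 of them in sgKeap1-1 and for 17 in sgKeap1-2, and its part in these signs and medians was not tested. With sgKeap1-1, 0 of 18 passed by edgeR, limma-voom or DESeq2, and 1 had an unadjusted p under 0.05 in edgeR, where 15% of all features did. With sgKeap1-2, CCNA2 (cyclin A2) and CENPA (the centromeric histone H3 variant) fell, where 4.85% of all features were called lower. CCNA2 had a CPM of 90.1, 115 and 124 in sgCtrl, 74.8, 55.3 and 97.0 in sgKeap1-1, and 69.3, 48.5 and 65.2 in sgKeap1-2. All sgKeap1-2 libraries were below sgCtrl, and the log2 fold change was -0.85 ± 0.20 (adjusted p = 0.0162, edgeR), against -0.53 (adjusted p = 0.204) with sgKeap1-1. Its last 1000 bases overlap EXOSC9 on the opposite strand, which is also in the count table, so reads of these genes may not be told apart. CENPA fell by 0.71 with sgKeap1-2 (adjusted p = 0.0464) and did not pass with limma-voom (0.0551), without TMM scaling (0.0623) or with a minimum of 10 counts in each library (0.0539). Without the libraries numbered 2, CENPA gave -0.52 with sgKeap1-2 (adjusted p = 0.198, edgeR). For both guides combined, CCNA2 then gave -0.49 (adjusted p = 0.0784, edgeR) instead of -0.69. PCNA, the replication clamp and itself a p53 target, gave -0.25 (adjusted p = 0.68) and -0.67 (adjusted p = 0.0621); the latter passed with DESeq2 (0.0268) and in a fit of the 2 groups alone (0.0316). The CCNA2 call was lost without sgCtrl replicate 3 (0.0777) or sgKeap1-2 replicate 2 (0.0665) and without number 1 (0.0814) or 3 (0.054), and the CENPA call without any one sgCtrl library, sgKeap1-1 replicate 1 or sgKeap1-2 replicate 2 or 3 (0.0663 to 0.162) and without any one number (0.129 to 0.198). With the replicate block, 4 of the 18 (CCNA2, TOP2A, BIRC5 and MCM2) were called lower with sgKeap1-1, where 3.72% of all features were.

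**Figure D5:**
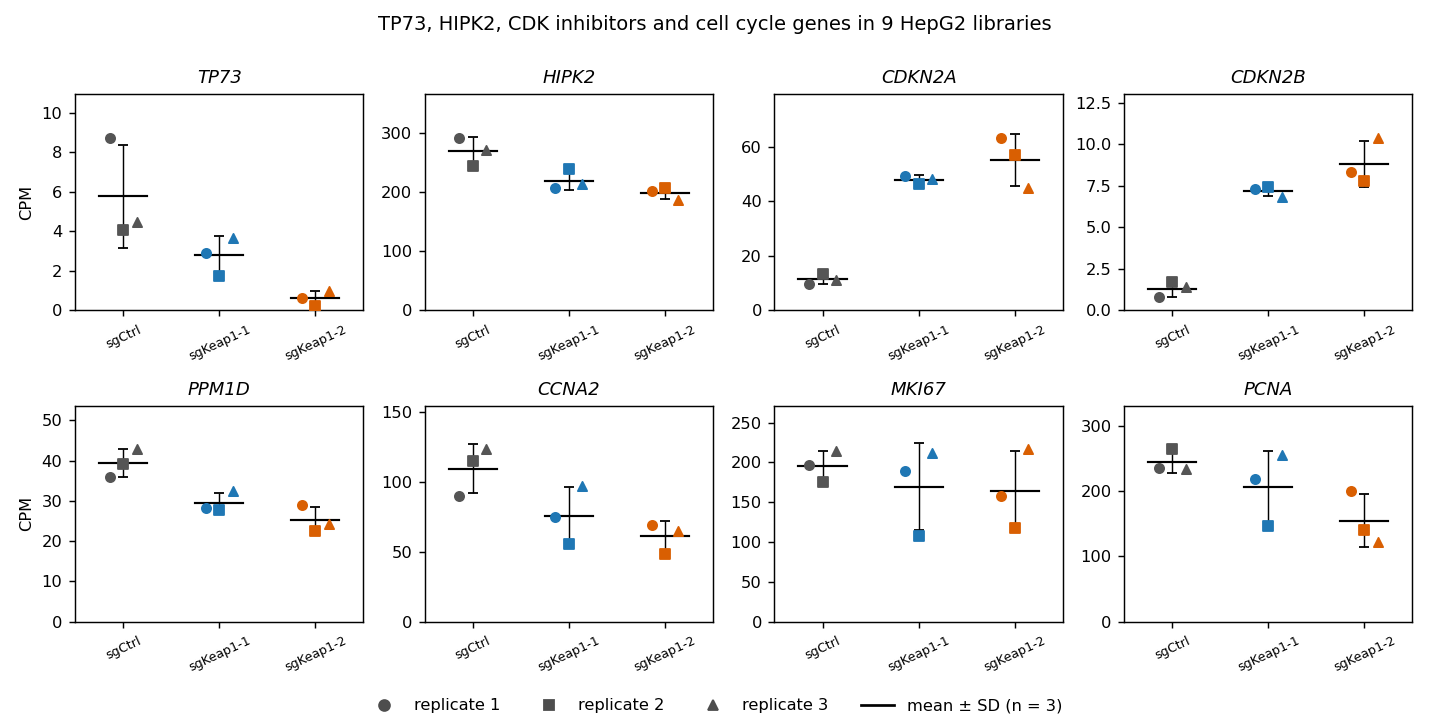
TMM-scaled CPM (vertical axes, from 0) of TP73, HIPK2, CDKN2A, CDKN2B, PPM1D and 3 cell cycle genes in the 9 libraries; symbols mark the replicate number, and the line and bar are the mean ± SD of 3 libraries. CDKN2A lies at 9.80 to 13.3 in sgCtrl and at 44.8 or more with either KEAP1 guide, while MKI67 and PCNA overlap between sgCtrl and sgKeap1-1.

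BBC3 and BAX belong to the BCL2 family, of which 10 further members were tested. With sgKeap1-1, 0 of 10 passed by edgeR, limma-voom or DESeq2, and 2 had an unadjusted p under 0.05 in edgeR, against 15% of all features. With the replicate block, BMF was called lower with sgKeap1-1 (-1.15, adjusted p = 0.0176), 1 of 10 where 3.72% of all features were. With sgKeap1-2, BIK rose and BMF and BOK fell, 3 of 10 where 10.8% of all features were called in either direction. BIK, a BH3-only protein, went from 0 to 1.06 CPM in sgCtrl to 3.66 to 4.12 in sgKeap1-2 (adjusted p = 0.0153, edgeR). Its sgCtrl libraries held 4, 1 and 0 reads, so it passed the filter on low counts only through KEAP1-guide libraries. BMF, also BH3-only, went from 8.09 to 13.2 CPM down to 1.70 to 5.12, a log2 fold change of -1.58 (adjusted p = 0.0148), and overlaps an antisense gene at its 3′ end. BOK, a relative of BAX, fell by 0.72 (adjusted p = 0.0432) and did not pass with a minimum of 10 counts in each library (0.0513) or in a fit of the 2 groups alone (0.061). The BIK call was lost without sgCtrl replicate 2 (0.0512) or 3 (0.061), the BMF call without sgCtrl replicate 1 (0.0756), and the BOK call without any one of 7 libraries (0.0503 to 0.161); without number 1 all 3 were lost (0.0737 to 0.385), BIK also without number 2 (0.0516) or 3 (0.0917) and BOK without number 2 (0.201).

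The integrated stress response, a pathway of ATF4 that also drives GDF15 and SESN2, was read with 9 tested genes. With either guide 0 of 9 passed by edgeR or limma-voom, and 2 had an unadjusted p under 0.05 in edgeR with each guide (15% and 23.3% of all features did). DESeq2 called 0 with sgKeap1-1 and 1 (PPP1R15A) with sgKeap1-2, and its share of all features is not given here. Over these genes the log2 fold change was positive in 8 of 9 with sgKeap1-1 and in 9 of 9 with sgKeap1-2. The medians were 0.38 and 0.39, against -0.00 and -0.01 over all features. ATF4 itself gave -0.07 (adjusted p = 0.918, edgeR) and 0.15 (adjusted p = 0.607). With the replicate block, DDIT4 (0.90, adjusted p = 0.0026) and PPP1R15A (0.94, adjusted p = 0.0051) were called higher with sgKeap1-1 beside GDF15, where 5.11% of all features were. The block also called DDIT4 and PPP1R15A higher with sgKeap1-2 and for both guides combined, where 9.11% and 8.41% of all features were.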

How the data were processed

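QuantSeq 3′ mRNA libraries of HepG2 cells, 3 per group, were analysed. The authors trimmed single-end reads with cutadapt 1.16, aligned them with STAR 2.7.5b, counted them per gene with featureCounts 1.6.3 and deposited whole-number read counts, with no normalization. The methods name GRCh37 as the genome, while the submitters' processing notes name hg38; the build, the gene annotation and the strand setting are therefore not settled here, and no coordinate was needed to use the counts. Positions of guides and genes come from the GRCh37 reference with GENCODE v44lift37, and promoters from RefSeq on GRCh38.p14. Every deposited row had over 0.5 CPM in at least 3 libraries. Rows without an Entrez number (1052 of 12798, 1.34% of reads) were left out of library sizes and tests, and 11740 of the 11746 numbered rows matched a RefSeq symbol.

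Counts were filtered with filterByExpr, scaled by TMM and fitted with edgeR 4.0.16 (R 4.3.3), using its robust quasi-likelihood test with the group as the only factor and all 9 libraries in 1 fit. P-values were adjusted over all 11064 features by Benjamini-Hochberg, with a threshold of 0.05. The standard error of a log2 fold change is its size divided by the square root of F, and intervals are at 95%. The contrasts read were 4: sgCtrl with either KEAP1 guide, 1 KEAP1 guide with the other, and sgCtrl with the mean of both. The log2 differences between same-numbered libraries use log2 CPM with a prior count of 2. Same-numbered sgCtrl and sgKeap1-1 libraries deviated together from their group means (correlations of 0.163 to 0.378 over features, all above the 0.1 asked for). Those with different numbers gave -0.319 to 0.157, so the lowest same-numbered value was barely above the highest of these. Same-numbered libraries of every group, sgKeap1-2 included, share a prefix in the labels whose meaning is not given. From the correlations, the numbers were taken as pairing sgCtrl and sgKeap1-1 only. For the other pairs of groups 2 of 3 correlations exceeded 0.1. Libraries with different numbers gave -0.289 to 0.144 for sgCtrl and sgKeap1-2, and -0.402 to 0.266 for the KEAP1 guides. No 2 libraries of a group were alike within sampling noise (chi-square per degree of freedom 4.63 to 24.1).

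The genes named are the 10 targets, up to 8 genes past the threshold in any contrast from each further list, and MDM4, PMAIP1, SESN2, PCNA, KEAP1, PPP1R12C, NQO1 and ATF4. A gene of these lists is not reported here and was left out of their counts. NRF2 targets and cell type markers are mostly given as counts. GADD45A, TOP2A, BIRC5, MCM2, DDIT4, PPP1R15A, MKI67, CD68, ACTA2 and the neighbours of CDKN2A fall outside that rule; they were picked with their values in view. The 10 targets and all lists were chosen with earlier results of these data known. Alternatives were the replicate block, DESeq2 size factors, no scaling, limma-voom (limma 3.58.1), DESeq2 1.42.0, no filter beyond 1 count, a minimum of 10 counts in each library, a fit of the 2 groups alone, and leaving out each library or number. Keeping the rows without an Entrez number was added after seeing the data.

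On simulated counts (10719 genes, 200 changed), edgeR recovered 75 of 100 genes changed 2-fold and 12 of 100 changed 1.5-fold in the contrast standing for sgKeap1-1, 78 and 24 for sgKeap1-2, and 87 and 35 for both guides. In the contrast without changed genes it made 0 calls, as did limma-voom and DESeq2. In the contrasts with changed genes, false calls were 3.33%, 1.92% and 3.17% of edgeR's calls for sgKeap1-1, sgKeap1-2 and both guides. They were 2.3%, 1.98% and 2.54% for limma-voom and 7%, 4.67% and 9.16% for DESeq2. The simulated counts held no effect of the replicate number, unlike the real libraries.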

Additional observations from a re-analysis of the deposited data

How the results depend on the processing

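For the 10 p53 targets, other scaling, limma-voom, DESeq2, other filters, a fit of the 2 groups alone and keeping rows without an Entrez number changed no call in any of the 4 contrasts (80 of 80 results with each guide and between the guides, 70 of 70 for both guides). With the replicate block, 2 targets were called with sgKeap1-1 (CDKN1A and GDF15) and 4 with sgKeap1-2: CDKN1A, BBC3 and GDF15 (0.72, adjusted p = 6.5e-05, edgeR) were higher and SESN1 (-0.62, adjusted p = 0.0365) was lower, where 9.11% and 8.57% of all features were called. Of the further lists with sgKeap1-2, the block called 7 of 25 p53 targets instead of 2 and 9 of 18 cell cycle genes instead of 2, the latter all lower, where 17.7% of all features were called in either direction. The block left 0 called between the guides and 3 called for both guides (GDF15 at 0.67, adjusted p = 3.2e-05). The numbers were not taken as pairing sgKeap1-2 with sgCtrl or the guides with each other (correlations of -0.01 to 0.34 and 0.03 to 0.52). Features called under the block were 977 with sgKeap1-1 instead of 465, 1956 with sgKeap1-2 instead of 1196, 26 between the guides instead of 2, and 1840 for both guides instead of 1115. Between the guides, 0 features were called with limma-voom, with at least 10 counts in every library or with the 2 groups alone, and 19 with DESeq2. Leaving out 1 library or 1 number gave 106 to 688 features with sgKeap1-1, 289 to 1291 with sgKeap1-2, 0 to 2 between the guides and 269 to 1409 for both guides. It gave 0 to 1 targets called with sgKeap1-1, 1 to 3 with sgKeap1-2 and 0 to 2 for both guides. Without the libraries numbered 2, GDF15 passed with sgKeap1-2 (0.65, adjusted p = 0.0415) and for both guides (0.60, adjusted p = 0.0342), where the targets called were CDKN1A and GDF15; without those numbered 1, CDKN1A did not pass for both guides (0.71, adjusted p = 0.0558). The cause of these shifts was not tested. With 3 libraries per group, changes near 1.5-fold were mostly missed in the simulation.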

Other observations

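CDKN2A and CDKN2B, the CDK inhibitor genes that rose with both guides, lie 7602 bases apart on chromosome 9 (chr9:21967751-21995300 and chr9:22002902-22009304, GRCh37, both on the minus strand). Of the genes tested nearby, MTAP, which salvages methionine, gave log2 fold changes of -0.08 (adjusted p = 0.87, edgeR) with sgKeap1-1 and -0.15 (adjusted p = 0.593) with sgKeap1-2. FOCAD gave -0.05 and -0.08, and KLHL9 gave 0.14 (adjusted p = 0.743) and 0.36 (adjusted p = 0.138). These neighbours were looked at after the CDKN2A and CDKN2B values were seen.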
